A study of Mus musculus with 14 samples.

Results

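The organic anion and cation transporters are 41 protein-coding mouse genes of the Slc22a, Slco1 to Slco6 and Slc47a families, chosen by gene symbol alone from 56980 gene IDs counted by RNA-Seq in whole kidneys of female mice. Wild-type outbred CD-1 mice were killed at 18 weeks of age and each of the 14 libraries came from 1 mouse. Shortly before death the mice of the study were injected with cationic ferritin for imaging. Term non-diabetic mice (T-ND, n = 4) were born naturally, reared by their own mothers and given no streptozotocin. Term diabetic mice (T-D, n = 4) were born in the same way and received low-dose streptozotocin (STZ), a toxin that destroys insulin-producing beta cells. Preterm non-diabetic (PT-ND, n = 3) and preterm diabetic mice (PT-D, n = 3) were delivered by Caesarean section shortly before term and given to foster mothers, whose drinking water held acepromazine, so that preterm birth, surgical delivery and fostering cannot be told apart. Some PT-D mice of the study, and no T-D mouse, had a second round of STZ, and which PT-D libraries came from them is not given. The question was how STZ diabetes, preterm birth and both together changed the expression of these carriers.

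The proximal tubule of the kidney clears drugs, toxins and metabolic waste from blood into urine. Carriers on the blood side, such as the organic anion transporters OAT1 (Slc22a6) and OAT3 (Slc22a8) and the organic cation transporter OCT2 (Slc22a2), bring substrates into the cell, and carriers on the urine side, such as MATE1 (Slc47a1), release them. URAT1 (Slc22a12) takes urate back from urine, OCTN2 (Slc22a5) takes back carnitine, and the OATP carriers encoded by the Slco genes move bile salts, steroid conjugates, thyroid hormone, prostaglandins and many drugs. In rodents, several of these carriers are known to differ between males and females and to respond to sex hormones.

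Of the 41 genes, 35 had more than 10 counts summed over the 14 libraries and were tested. The 6 others had 0 to 4 counts in all: Slc22a16, Slc22a20, Slco1a7, Slco1b2, Slco1c1 and Slco6c1, among them the liver carrier Slco1b2 with 2 counts. Libraries held 16697246 to 28673176 counts on genes, and 1 count corresponded to 0.752 to 1.29 normalized counts. Normalized counts below are counts scaled by the trimmed mean of M-values (TMM) method to the mean effective library size. The defining proximal tubule gene Slc34a1 lay between 44727 and 97784 normalized counts in every library, and the 4 adrenal cortex genes summed to at most 9.06, near the limit of detection. Fat RNA varied from library to library in all groups: the 3 adipocyte genes summed to between 1.83 and 4540.2. One library, PT-D replicate 1, stood apart for these carriers: it was the lowest of the 14 libraries for 15 of 35 tested carriers (42.9%), against 8.58% of all 22339 genes with more than 10 counts. T-D replicate 4 was the lowest for more of all genes, 14.9%, and for 2 of the 35 carriers. Some results that use PT-D replicate 1 are given with and without it, and the others include it. In bulk kidney, fewer proximal tubule cells and less RNA per cell cannot be told apart.

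The promoters of 4 carriers are printed because they belong to both sides of the pattern seen in PT-D replicate 1: Slc22a19, Slc22a26 and Slco1a6 were at their lowest there, and Slc22a6 was within the range of the other libraries. RefSeq held a promoter for 34 of the 41 genes. Each line gives the 250 bases before the transcription start on mouse build GRCm38.p6, 5′ to 3′ along the gene's own strand. Capitals mark TTCNNNGAA, the palindrome bound by STAT5, searched on both strands.
Slc22a19, chr19:7711311-7711560, minus strand: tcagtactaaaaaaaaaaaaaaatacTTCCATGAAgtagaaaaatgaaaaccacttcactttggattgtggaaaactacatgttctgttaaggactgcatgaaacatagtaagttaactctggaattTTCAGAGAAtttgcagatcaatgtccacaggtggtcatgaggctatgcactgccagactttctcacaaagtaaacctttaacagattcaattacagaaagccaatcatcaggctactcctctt
Slc22a26, chr19:7802668-7802917, minus strand: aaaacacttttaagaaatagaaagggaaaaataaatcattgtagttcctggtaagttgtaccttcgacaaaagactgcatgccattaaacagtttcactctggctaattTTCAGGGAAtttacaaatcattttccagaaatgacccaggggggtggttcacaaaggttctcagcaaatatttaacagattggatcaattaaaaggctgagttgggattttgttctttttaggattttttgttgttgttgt
Slco1a6, chr6:142186150-142186399, minus strand: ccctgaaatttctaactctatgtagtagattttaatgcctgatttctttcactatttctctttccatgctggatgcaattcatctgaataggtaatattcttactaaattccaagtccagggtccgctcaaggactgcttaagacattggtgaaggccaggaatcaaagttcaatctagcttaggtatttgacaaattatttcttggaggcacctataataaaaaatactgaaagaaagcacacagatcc
Slc22a6, chr19:8617746-8617995, plus strand: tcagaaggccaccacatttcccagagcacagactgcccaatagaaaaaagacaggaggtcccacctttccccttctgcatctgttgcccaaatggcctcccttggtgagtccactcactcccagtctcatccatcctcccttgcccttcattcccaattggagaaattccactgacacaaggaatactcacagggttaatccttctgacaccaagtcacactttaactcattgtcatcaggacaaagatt

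TTCNNNGAA was in 7.02% of all 32851 RefSeq promoter windows of that length and in 7 of the 39 windows of the carriers. Those 39 windows belong to 34 carriers, of which 7 had a match. Slc22a19 held 2 matches and Slc22a26 held 1, and the windows of Slco1a6 and Slc22a6 held none. The other carriers with a match were Slc22a15, Slc22a16, Slco1a5, Slco1b2 and Slco2b1.

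Levels were compared between genes as CPM per kilobase of exon, and 23 of the 35 tested carriers averaged at least 1 on that scale in T-ND. The highest in T-ND was Slc22a18, an orphan carrier next to imprinted genes, at 320 ± 25.2 (SD, n = 4). Slc22a12 followed at 235 ± 77.4 and Slc22a7 (OAT2) at 209.5 ± 44.7, and each of the 3 overlapped the next in that order. Slco1a6, a rodent-specific OATP, was at 155 ± 41.3, and Slc22a6 stood at 106 ± 9.10, Slc47a1 at 97.4 ± 12.7 and Slc22a8 at 85.2 ± 6.98, again with overlapping values between neighbours. The 8 highest carriers made up 81.2% of the summed level of all 35 in T-ND and 84.2% in T-D, 83.8% in PT-ND and 83.5% in PT-D. The cation carrier Slc22a3 (OCT3) was at 0.0483 ± 0.0383 and Slc47a2 (MATE2) at 0.0520 ± 0.0342, both near 0. Reads of Slc22a12 cannot be told from those of Nrxn2 on the opposite strand where their transcripts overlap, 30.6% of the longest Slc22a12 transcript, since the libraries were un-stranded.

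**Figure D1:**
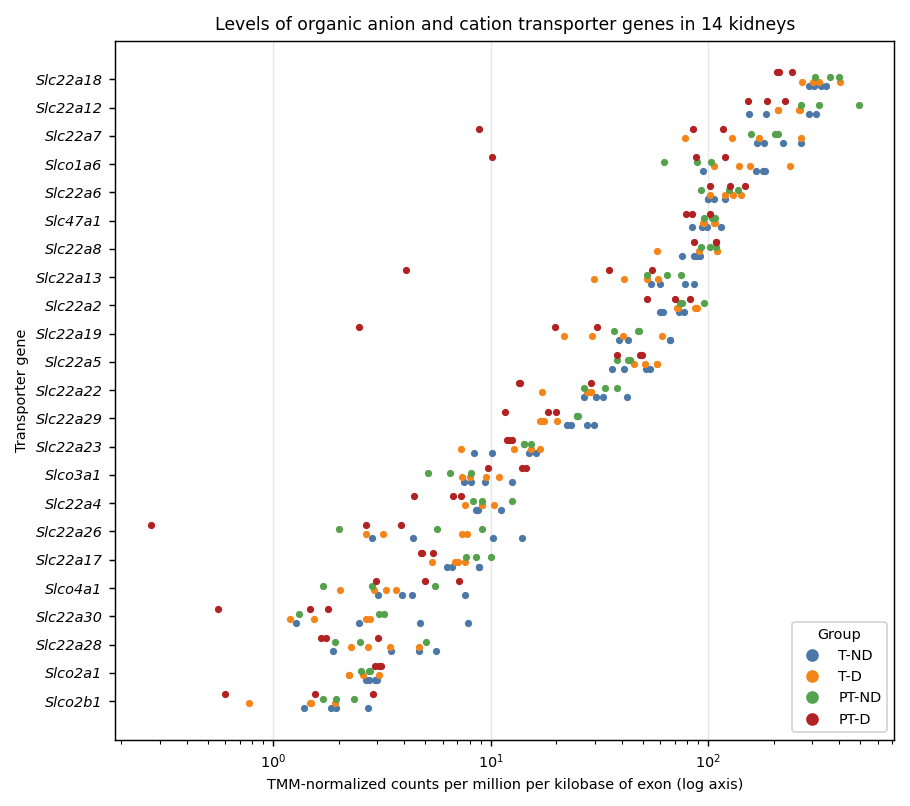
Level of the 23 carriers with a mean of at least 1 over all 14 libraries, as TMM-normalized CPM per kilobase of exon on a log axis, with each point 1 library coloured by group. Slc22a18, Slc22a12 and Slc22a7 lead, and for Slc22a7, Slco1a6, Slc22a13, Slc22a19 and Slc22a26 a single PT-D point lies far to the left of the rest.

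In the comparison of PT-D with T-ND, which sets both exposures against neither, no carrier was a DEG, defined as an adjusted p under 0.05 by edgeR's quasi-likelihood test with Benjamini-Hochberg adjustment and a log2 fold change beyond 1 in size. DEGs were 1.45% of all 22310 genes tested, and 2.76% of genes passed the adjusted p alone, again with no carrier among them. Unadjusted p was under 0.05 for 12 of 35 carriers (34.3%) and for 24.3% of all genes, and DESeq2 passed 7 carriers and 12.6% of all genes at an adjusted p under 0.05, where 2 carriers (Slc22a27 and Slc22a30, both lower) and 4.24% of all genes were DEGs. The fitted log2 fold change was below 0 for 25 of 35 carriers with a median of -0.33, against 48.1% of all genes with a median of 0.03. By class, 11 of 13 tested organic anion transporters lay below 0 with a median of -0.88, and 10 of 13 with a median of -0.65 without PT-D replicate 1. Of the 6 tested members of the Slco2 to Slco5 genes, 1 lay below 0 with a median of 0.26, and 1 with a median of 0.37 without that library. Of the 5 tested Slco1 genes, 5 lay below 0 with a median of -0.92, and 4 with a median of -0.37 without it. The 3 Slc22 genes outside the anion, cation and carnitine classes all lay below 0, with medians of -0.55 and -0.51. Also below 0 were 1 of 2 cation transporters, 3 of 4 carnitine and zwitterion transporters and 1 of 2 Slc47a genes. The difference between the classes was not tested. The nearest to the threshold was Slc22a18, at -0.55 ± 0.12 (SE, adjusted p = 0.0503 by edgeR), which passed in 5 of 7 alternative fits (adjusted p from 0.000668 to 0.0922).

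Proximal tubule and other cell-type genes differed in the PT-D libraries too. The 12 proximal tubule markers summed to 223405 to 354689 normalized counts in PT-D and to at least 376841 in each of the other 11 libraries, but without Kap, the androgen-regulated gene that dominates the list, the other 11 summed to 217826 to 296636 in PT-D, overlapping T-ND (225862 to 307014) and T-D (224193 to 295866) but below each PT-ND library (308414 to 322519). The 4 podocyte markers summed to 9676 to 12933 in PT-D and to at most 9294 in any other library, and the 5 endothelial markers to 5775 to 6627 against at most 5507. Of the endothelial markers, Pecam1, Cdh5 and Kdr had their highest mean in PT-D, and Emcn and Tek did not. Emcn averaged 1129 in PT-D, 1350 in T-ND, 1193 in T-D and 1377 in PT-ND, and Tek 409, 523, 350 and 510. The part of these cell-type markers in the carrier values was not tested.

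Against T-D, the comparison that sets preterm birth within diabetes, edgeR called 0 carriers by either rule, with DEGs at 0.193% of all genes and the same 0.193% passing the adjusted p alone. Unadjusted p was under 0.05 for 6 of 35 carriers (17.1%) and 22.3% of all genes, and DESeq2 passed Slc22a4 and Slc22a18, both lower, with 10.2% of all genes. Carriers had a median log2 fold change of -0.34 with 24 of 35 below 0, against 46.3% of all genes. T-D against T-ND, diabetes in term-born mice, gave 0 carriers where 0.0673% of genes passed either rule, with 5 carriers (14.3%) and 11.8% of all genes at an unadjusted p under 0.05. DESeq2 passed 1 carrier, Slc22a29, and 2.1% of all genes. PT-ND against T-ND, preterm birth without diabetes, gave 0 carriers where 0.0809% of genes passed either rule, with 3 carriers (8.57%) and 10.7% of all genes at an unadjusted p under 0.05. DESeq2 passed 1 carrier, Slco1a6, and 1.38% of all genes. The medians over the 35 carriers were -0.09 and -0.08.

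PT-D against PT-ND, diabetes in preterm-born mice, was the comparison with the most genes called: DEGs were 4.95% of 22303 genes, and 12.9% passed the adjusted p alone. Among the carriers 0 were DEGs, and 4 of 35 (11.4%) passed the adjusted p alone, a share near that of all genes. Slc22a17, Slc22a18 and Slc22a12 fell and Slco3a1 rose. Unadjusted p was under 0.05 for 11 of 35 (31.4%) and for 29.1% of all genes. DESeq2 passed 8 carriers and 18.9% of all genes, with 1 carrier (Slco4c1, higher) and 6.1% of all genes as DEGs. Without PT-D replicate 1, 6 carriers and 12.4% of all genes passed the adjusted p in edgeR, and 2 carriers (Slco3a1 and Slco4c1, both higher) and 5.19% of all genes were DEGs. The proximal tubule markers taken as a sum were lower in PT-D than in PT-ND as well, but not each marker was. Slc5a12 averaged 8830 normalized counts in PT-D against 6646 in PT-ND, and Cyp7b1 170 against 42.5. Slc5a2 and Acsm2 also had higher means in PT-D, and the other markers had lower ones. The part of these markers in the calls was not tested. The PT-D libraries enter all comparisons with PT-D, and PT-ND or T-ND also serve more than 1, so the values of a gene in these comparisons share libraries.

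Slc22a17, the 24p3 receptor, binds lipocalin-2 and its iron-loaded siderophores, and lies at chr14:55143761-55150589 on GRCm39. It counted 575, 604, 803 and 805 normalized counts in T-ND, 694, 642, 626 and 490.4 in T-D, 701, 915 and 782 in PT-ND, and 494, 436 and 443 in PT-D. All 3 PT-D libraries lay below all 3 PT-ND libraries and all 4 T-ND libraries, and overlapped T-D through T-D replicate 4. The log2 fold change of PT-D against PT-ND was -0.80 ± 0.15 (SE, adjusted p = 0.0107 by edgeR). Averaged over term and preterm mice, the STZ effect was -0.49 ± 0.12 (adjusted p = 0.0355). Without PT-ND replicate 2 the first call was lost (adjusted p = 0.0571), and the second was lost in 8 of 14 fits that left out 1 library, T-ND replicate 4, T-D replicates 2 and 3, PT-ND replicates 2 and 3 or any PT-D library (largest adjusted p = 0.108).

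Slc22a18 (chr7:143027466-143053072) counted 7804, 9135 and 8009 normalized counts in PT-D, against 11723, 13636 and 15119 in PT-ND. It counted 13153, 12504, 11605 and 11008 in T-ND and 10136, 12185, 11430.4 and 15248 in T-D. Each PT-D library lay below each of the other 11. PT-D was lower than PT-ND by a log2 fold change of -0.70 ± 0.16 (SE, adjusted p = 0.0196 by edgeR). The values were -0.56 ± 0.19 against T-D (adjusted p = 0.121) and -0.55 ± 0.12 against T-ND. The PT-ND call was lost without PT-D replicate 3, PT-ND replicate 2 or PT-ND replicate 3 (adjusted p up to 0.0772), with the direction kept at -0.80 to -0.61 over 6 such fits.

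Slc22a12 (chr19:6585875-6593062) counted 14719.9, 12155 and 22566 normalized counts in PT-ND and 6987, 10267 and 8558 in PT-D. It counted 13265 and 14256 in T-ND replicates 1 and 2 but 7064 and 8419 in replicates 3 and 4, and 9617, 9614, 12075 and 11998 in T-D. T-ND thus overlapped PT-D, with PT-D replicate 1 just below the lowest T-ND library. PT-D lay wholly below PT-ND, with a log2 fold change of -0.94 ± 0.24 (SE, adjusted p = 0.0281 by edgeR), and was -0.33 ± 0.25 from T-ND (adjusted p = 0.452). The call was lost without PT-D replicate 1 (adjusted p = 0.0590), PT-D replicate 3 or PT-ND replicate 3 (adjusted p = 0.0881, the largest of the 6).

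Slco3a1 (chr7:73925161-74204944) is a broadly expressed carrier of prostaglandins and thyroid hormone. Among the carriers higher in PT-D than in PT-ND, it was the 1 that passed the adjusted p by edgeR with all libraries. It counted 1917, 2742 and 2856 normalized counts in PT-D against 1016, 1275 and 1606 in PT-ND, and 1480.5, 1606, 2459.6 and 1855 in T-ND and 1451, 1879, 1581 and 2159.8 in T-D. PT-D lay above PT-ND without overlap, and PT-D replicate 1 was within the range of both term groups. The log2 fold change against PT-ND was 0.95 ± 0.21 (SE, adjusted p = 0.0167 by edgeR), and 1.11 ± 0.19 (adjusted p = 0.00773) without PT-D replicate 1, where it became a DEG. Without PT-D replicate 3 or PT-ND replicate 2 the call was lost (adjusted p up to 0.0702). A stretch of 6.90% of its longest transcript is shared with the gene model Gm39037.

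In the fit over all 14 libraries, the STZ effect averaged over birth groups made 1.28% of 22339 genes DEGs and 3.01% passed the adjusted p alone. No carrier was a DEG, and 2 of 35 carriers (5.71%) passed the adjusted p alone in edgeR, Slc22a29 and Slc22a17. An unadjusted p was under 0.05 for 13 of 35 (37.1%), against 19.9% of all genes. DESeq2 passed 6 carriers and 8.47% of all genes, with 2 carriers (Slc22a27, lower, and Slc47a2, higher) and 2.51% of all genes as DEGs. Slc22a29 (chr19:8137529-8230661), a rodent gene of the organic anion transporter branch, counted 1474, 1164, 1112 and 1372 normalized counts in T-ND and 867, 831, 847 and 1005 in T-D. It counted 1241, 1251 and 1231 in PT-ND and 576, 906 and 986 in PT-D. Each diabetic library lay below each non-diabetic library. The STZ effect was -0.56 ± 0.12 on the log2 scale (SE, adjusted p = 0.0243 by edgeR), a 1.48-fold difference, and -0.46 ± 0.10 (adjusted p = 0.0373) without PT-D replicate 1. The call was lost in 4 of 14 fits, those without T-ND replicate 1, T-D replicate 2, PT-ND replicate 2 or PT-ND replicate 3 (adjusted p up to 0.0675). In term mice alone the change was -0.55 ± 0.14 (adjusted p = 0.190) and in preterm mice -0.59 ± 0.19 (adjusted p = 0.0663).

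**Figure D2:**
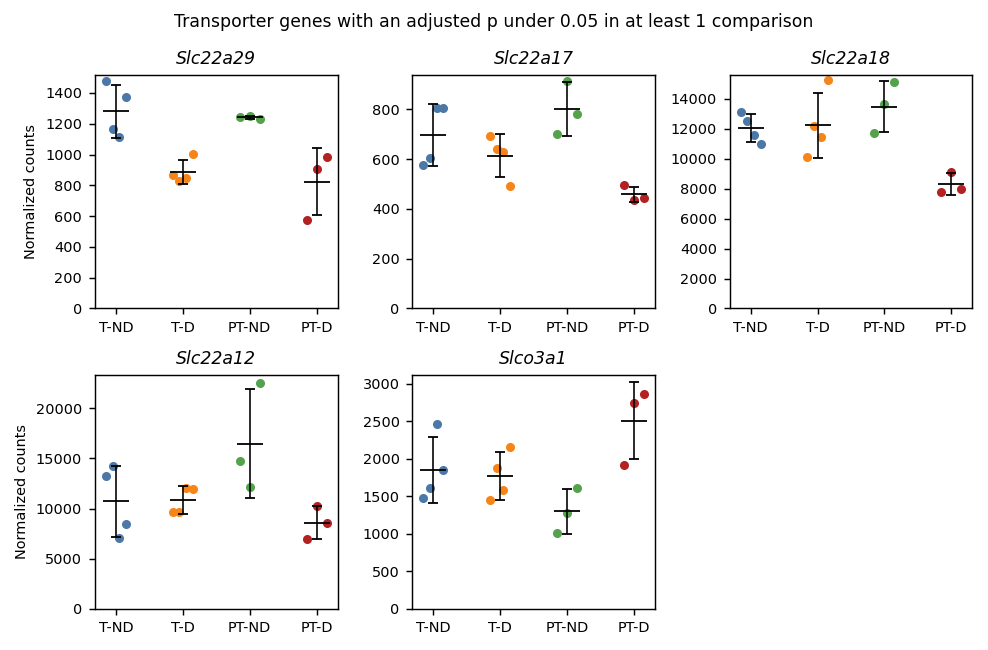
Normalized counts of the 5 carriers with an adjusted p under 0.05 by edgeR in at least 1 comparison, with each point 1 library and the bars the mean ± SD of T-ND and T-D (n = 4) and PT-ND and PT-D (n = 3). Slc22a29 is lower in both diabetic groups, Slc22a18 is lowest in the 3 PT-D libraries, and Slco3a1 is higher in PT-D than in PT-ND.

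Preterm birth averaged over diabetic status made 0.0403% of genes DEGs, and 0.0537% passed the adjusted p alone. Neither edgeR nor DESeq2 passed a carrier, where DESeq2 passed 0.631% of all genes. An unadjusted p was under 0.05 for 1 of 35 carriers (2.86%) and for 10.9% of all genes. The carrier was Slco1a6, at -1.01 ± 0.37 on the log2 scale (adjusted p = 0.412 by edgeR). In mice without STZ it counted 7888, 6803 and 4822 normalized counts in PT-ND against 14068, 7246, 13698 and 12809 in T-ND, overlapping through T-ND replicate 2 (log2 fold change -0.88 ± 0.24, adjusted p = 0.281).

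The interaction asks whether the STZ effect differed between preterm and term mice, and it made 4.45% of genes DEGs with 6.23% passing the adjusted p alone. Among the carriers 0 passed the adjusted p in edgeR, with 7 of 35 and 24.5% of all genes at an unadjusted p under 0.05. DESeq2 passed 5 carriers (Slc22a12, Slc22a17, Slc22a18, Slco3a1 and Slco4c1) and 14% of all genes, with Slco4c1 and 7.36% of all genes as DEGs. The nearest to the threshold was Slco3a1, with an interaction of 1.01 ± 0.30 (SE, adjusted p = 0.0550 by edgeR). Its log2 fold changes were -0.09 ± 0.19 (adjusted p = 0.890) between T-D and T-ND and 0.95 ± 0.21 (adjusted p = 0.0167) between PT-D and PT-ND. The interaction passed in 5 of 6 alternative fits (adjusted p from 0.0209 to 0.0616), and in 2 of 14 fits that left out 1 library, those without PT-D replicate 1 (adjusted p = 0.0450) or T-D replicate 4.

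Among the classical basolateral anion carriers, Slc22a6 counted 9713, 8668, 8138 and 8134 normalized counts in T-ND and 9773, 11524, 10669.9 and 8334 in T-D. It counted 10198, 7568 and 11209 in PT-ND and 8324, 12054 and 10298 in PT-D. The groups overlapped, and the log2 fold change of PT-D against T-ND was 0.23 ± 0.15 (SE, adjusted p = 0.362 by edgeR). Slc22a8 counted 12073, 10268, 11645 and 12444 in T-ND and 14841, 12654 and 13915 in PT-ND. It counted 12283, 14970.5, 14887 and 7878 in T-D and 14702, 14825 and 11656 in PT-D. Its low value was in T-D replicate 4, the library where the podocyte markers also summed to their lowest (2897), and PT-D against T-ND was 0.24 ± 0.14 (adjusted p = 0.313). PT-ND lay above T-ND without overlap, at 0.25 ± 0.13 (adjusted p = 0.511), and the other groups overlapped.

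The blood-side cation carrier Slc22a2 counted 4589, 4348, 3529 and 3671 normalized counts in T-ND and 4299.8, 5122, 4262 and 5253 in T-D. It counted 4382, 4491 and 5659 in PT-ND and 3087, 4858 and 4152 in PT-D. Slc47a1, which exports cations into urine in exchange for protons, counted 6598, 5912, 6947 and 8054 in T-ND, 6671, 7471, 7540.0 and 6741 in T-D, 7559.7, 6712 and 7351 in PT-ND and 5931, 7206 and 5592 in PT-D. Both overlapped between all groups. PT-D against T-ND was -0.01 ± 0.17 for Slc22a2 (adjusted p = 0.983 by edgeR) and -0.15 ± 0.15 for Slc47a1 (adjusted p = 0.572).

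The carnitine carrier Slc22a5 counted 5797, 5111, 7292 and 7643 normalized counts in T-ND and 8194, 7225, 8205 and 6405 in T-D. It counted 6061, 5349.6 and 6187 in PT-ND and 5382, 6874 and 6964 in PT-D. T-D lay wholly above PT-ND, and the other groups overlapped. Slc22a4 (OCTN1), the ergothioneine carrier of the same gene cluster on chromosome 11, counted 549, 902 and 832 in PT-D, below 1128, 1544 and 1026 in PT-ND. It counted 1375, 1080.5, 1071 and 1063 in T-ND and 942, 1134, 1132 and 1276 in T-D, so each PT-D library lay below each of the other 11. Its adjusted p stayed above the threshold in edgeR, at 0.0568 against PT-ND (-0.70 ± 0.21), 0.126 against T-D (-0.57 ± 0.19) and 0.0872 against T-ND (-0.60 ± 0.18), and the first passed in 5 of 7 alternative fits. Slco4c1, a carrier of digoxin and uremic toxins, was at low counts, 12.4 to 54.2 normalized counts in 11 libraries. The 3 higher values were 189 in T-ND replicate 1, 100.1 in PT-D replicate 2 and 222 in PT-D replicate 3, and PT-D against PT-ND was 1.89 ± 0.75 (adjusted p = 0.121).

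The values of PT-D replicate 1 split the carriers. Slc22a7, which moves cyclic nucleotides, prostaglandins and other anions, had 389 normalized counts there, 8.92-fold under the next lowest of the 14 libraries. It counted 3784 and 5152 in the other PT-D libraries, 6937, 8978 and 9308 in PT-ND, 11840.3, 9810.2, 8024 and 7454 in T-ND and 7574, 5676, 3475 and 11786 in T-D. Slc22a19 (OAT5), an anion carrier of the urine side in rodents, had 273 there against 2169.7 and 3367 in the other PT-D libraries, 2382 to 6734 in T-D, 4052 to 5276 in PT-ND and 4249 to 7354 in T-ND. Slco1a6 had 782 there against 6779.9 and 9156 in the other PT-D libraries, and 8200.0, 10707, 11919 and 18238 in T-D. Slc22a13 (OAT10), a urate and nicotinate carrier, had 164 there and 1209 or more in the other 13.

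The same split was seen in 3 genes with lower counts. Slc22a26 had 16.4 normalized counts in PT-D replicate 1 against 121 or more elsewhere, Slc22a27 had 1.82 (2 counts) against 19.6 or more, and Slc22a30 had 41.0 against 87.7 or more. These 7 genes are all the tested carriers more than 2-fold under every other library in PT-D replicate 1, 7 of the 35 against 1.28% of all 22339 genes. They were chosen after their values were seen. In the other 13 libraries, 0 or 1 of the 35 carriers was more than 2-fold under every other library. Kap had 5579 in PT-D replicate 1 against 53989 or more in the other 13, Slc7a12 had 102 against 855 or more, and Lrp2, the endocytic receptor megalin, had 16819 against 23700.5 or more. Kap and Slc7a12 belong to a list of 6 male-biased kidney genes whose other members were not low in that library. Among them, Cyp4a12a was at its highest there (695), and Cyp2e1 (6867), Acsm3 (75.7) and Cyp2j13 (17.3) were within the range of the other libraries. Of the 11 proximal tubule markers other than Kap, 5 were at their lowest there, Lrp2, Cubn (3981), Aqp1 (10130), Miox (57688) and Slc7a13 (6.38). The other 6, among them Slc34a1 (80112) and Slc5a2 (9566), were within the range of the other libraries, as were Slc22a6, Slc22a8 and Slc47a1. Sums of other markers were apart in PT-D replicate 1 too. The distal convoluted tubule markers (25949, with Slc12a3 and Trpm6 but not Pvalb at their highest) and podocyte markers (12933) summed to their highest there. The thick ascending limb (45815) and collecting duct (15449) sums were within the range of the other libraries. The part of all these genes in the carrier values was not tested.

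**Figure D3:**
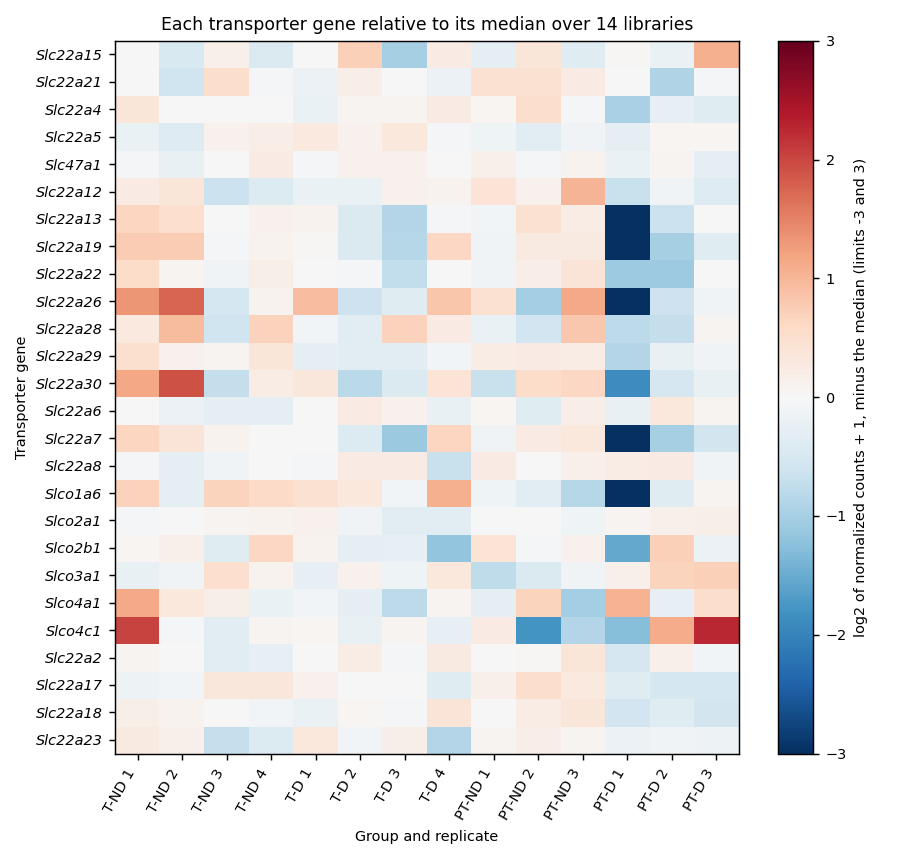
Each of the 26 carriers that averaged 50 or more normalized counts (rows, ordered by class) in each of the 14 libraries (columns), as log2 of normalized counts + 1 minus the gene's median, with colours limited to -3 and 3. PT-D replicate 1 is dark blue for Slc22a7, Slc22a13, Slc22a19, Slc22a26 and Slco1a6 and near white for Slc22a6, Slc22a8 and Slc47a1, and T-ND replicates 1 and 2 are red for Slc22a26 and Slc22a30.

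Position went along with part of this split. Slc22a19, Slc22a26, Slc22a27, Slc22a28, Slc22a29 and Slc22a30 lie in a row on the minus strand of chromosome 19, from 7650426 to 8382475 on GRCm39, with no other protein-coding gene between them in GENCODE M39. All 6 were lowest in PT-D replicate 1, by 7.96-fold, 7.37-fold, 10.7-fold, 1.05-fold, 1.44-fold and 2.14-fold under the next library, in that order. Slc22a8 (8568476 to 8589541) and Slc22a6 (8595356 to 8605663) are the next carriers along the chromosome, on the plus strand, and neither was at its lowest there. Slc22a7 (chromosome 17), Slc22a13 (chromosome 9) and Slco1a6 (chromosome 6) lie elsewhere. Of the 7 genes that were more than 2-fold lower, 6 have a promoter in RefSeq, of which 2 held TTCNNNGAA, Slc22a19 and Slc22a26. Between Slc22a28 and Slc22a30, 21.0% of the longest Slc22a28 transcript is shared, so their counts are uncertain.

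For 3 of these genes, Slc22a7, Slc22a19 and Slco1a6, fold changes are given here with and without PT-D replicate 1. Against T-ND, Slc22a7 had a log2 fold change of -1.59 ± 0.63 (SE, adjusted p = 0.165 by edgeR) with it and -1.07 ± 0.22 (adjusted p = 0.0556) without it. For Slc22a19 the values were -1.62 ± 0.63 (adjusted p = 0.155) and -1.11 ± 0.29 (adjusted p = 0.0882). Against PT-ND, Slc22a7 had -1.44 ± 0.62 (adjusted p = 0.154) with it and -0.91 ± 0.20 (adjusted p = 0.0187) without it, and Slc22a19 had -1.32 ± 0.60 (adjusted p = 0.171) and -0.81 ± 0.21 (adjusted p = 0.0355). Both passed the threshold in the fit without the library, with smaller fold changes, and both were DEGs with all 3 libraries when genes with low counts were not filtered out (adjusted p = 0.000233 for Slc22a7 and 0.00047 for Slc22a19). Slco1a6 against PT-ND was -0.22 ± 0.60 with it and 0.29 ± 0.22 without it (adjusted p = 0.846 and 0.428). Over the 26 carriers that averaged 50 or more normalized counts, 19 lay below T-ND with all 3 PT-D libraries and 17 without PT-D replicate 1.

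**Figure D4:**
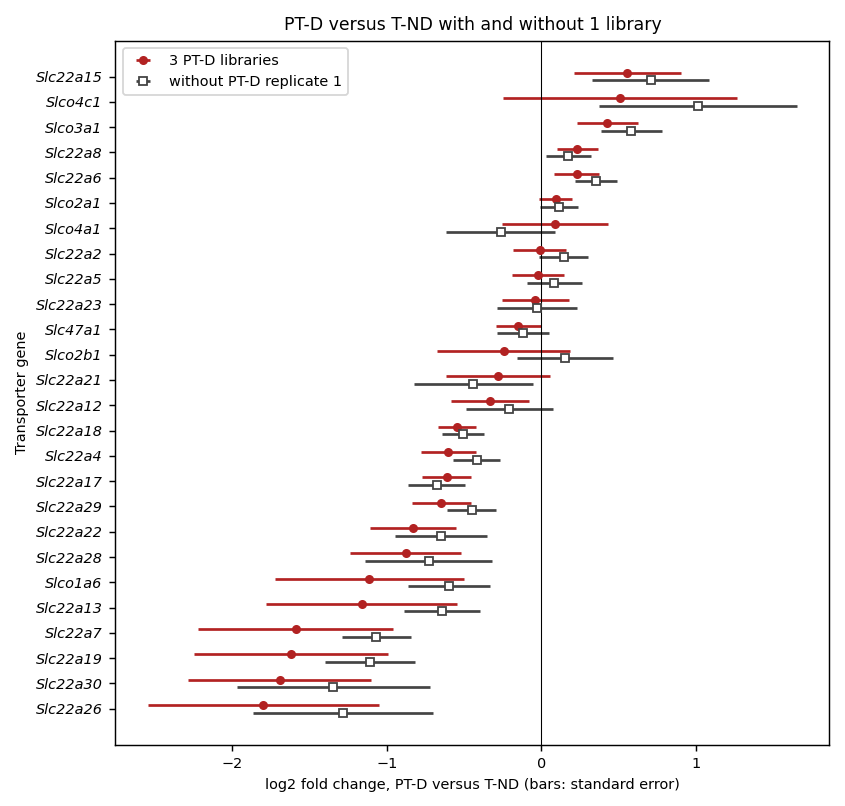
Log2 fold change of PT-D against T-ND for the 26 carriers that averaged 50 or more normalized counts, with filled circles for all 3 PT-D libraries, open squares without PT-D replicate 1, and bars the standard error. Slc22a7, Slc22a13, Slc22a19 and Slco1a6 move towards 0 and their bars shorten without that library, while Slc22a17 and Slc22a18 stay at -0.68 and -0.51.

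Carriers also varied between mice of the same group. In T-ND, Slc22a26 counted 616 and 835 normalized counts in replicates 1 and 2 and 171 and 263 in replicates 3 and 4, and Slc22a30 counted 348 and 582 against 93.2 and 182. The names of the libraries of T-ND replicates 1 and 2 end in the letter a, as do those of T-D replicate 1, PT-D replicate 1 and PT-ND replicate 2, and the labels do not say what the letter means. PT-ND replicate 2 had 121 for Slc22a26, the lowest of its group, and with the letter as a covariate Slc22a26 was a DEG in PT-D against PT-ND (log2 fold change -1.61 ± 0.34, adjusted p = 0.0154 by edgeR), against -1.29 ± 0.70 (adjusted p = 0.248) without it.

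Of 36 genes fixed as partners and regulators of these carriers (efflux pumps, urate and dicarboxylate carriers, scaffold proteins and transcription factors), 35 were tested. None passed the adjusted p in PT-D against T-ND, PT-D against T-D, T-D against T-ND, PT-ND against T-ND or the preterm average in edgeR, where 12, 6, 10, 6 and 2 had an unadjusted p under 0.05. The shares of all genes under that limit were 24.3%, 22.3%, 11.8%, 10.7% and 10.9%. Against PT-ND, 3 of 35 passed in PT-D and none was a DEG, where 12.9% of all genes passed and 4.95% were DEGs. The efflux pumps Abcc5 and Abcc4 rose and Slc13a2, which takes citrate and other dicarboxylates back from urine, fell. Abcc5 (MRP5), an exporter of cyclic nucleotides, counted 749, 795 and 864 normalized counts in PT-D against 391, 522 and 422 in PT-ND, 689, 571, 576 and 715 in T-ND and 562, 485, 501 and 289.6 in T-D. Each PT-D library lay above each other library. Its log2 fold change was 0.85 ± 0.16 (SE, adjusted p = 0.00966 by edgeR) against PT-ND, kept in all 6 fits that left out 1 library. Abcc4 (MRP4), which exports organic anions into urine, counted 2020.2, 1982 and 2539 in PT-D against 1499, 1204 and 1088 in PT-ND, a log2 fold change of 0.79 ± 0.17 (adjusted p = 0.0163). Slc13a2 counted 905, 988 and 981 against 1516, 1386 and 1365, a log2 fold change of -0.57 ± 0.13 (adjusted p = 0.0219). The calls of Abcc4 and Slc13a2 were each lost in 3 of 6 fits, without PT-D replicate 3, PT-ND replicate 2 or PT-ND replicate 3 for Abcc4 and without PT-D replicate 2, PT-D replicate 3 or PT-ND replicate 2 for Slc13a2.

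The STZ average called 1 of 35 partner genes and 1.28% of all genes as DEGs. The partner gene was the prolactin receptor Prlr, which acts through STAT5. Prlr counted 2848, 2858, 1799 and 2735 normalized counts in T-ND and 1749.6, 1398, 1254 and 717 in T-D. It counted 3898, 2777 and 2061 in PT-ND and 729, 1506 and 2115 in PT-D, where PT-D replicate 3 overlapped PT-ND. Its log2 fold change was -1.003 ± 0.235 (SE, adjusted p = 0.0349 by edgeR), and passed the adjusted p in 5 of 14 fits that left out 1 library, those without T-ND replicate 3, T-D replicate 1, T-D replicate 4, PT-ND replicate 3 or PT-D replicate 3. In the interaction, Abcc5 (1.32 ± 0.27, adjusted p = 0.0219) and the aryl hydrocarbon receptor Ahr (1.15 ± 0.33, adjusted p = 0.0479) were DEGs, as were 4.45% of all genes. Abcc5 lost the call without PT-D replicate 3 or PT-ND replicate 3, and of the 14 fits that left out 1 library Ahr passed in 3, those without PT-D replicate 1, T-D replicate 1 or T-D replicate 2. The nuclear receptor Hnf4a, which acts on many proximal tubule genes, passed in none of the 8 comparisons.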

How the data were processed

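Total RNA of whole kidneys was made into un-stranded libraries. The deposited values are raw counts of reads per gene, which the authors made with STAR on GRCm39 after removing adapters and low-quality reads, with GENCODE M36 as the annotation. The version of STAR is not given in the sources used here. No unit other than the counts for un-stranded reads was used.

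Gene IDs were matched to GENCODE M39 without their version (56236 of 56980, among them the 41 carriers). Genes with a total count of 10 or less were dropped. Counts were normalized by TMM and tested by edgeR 4.0.16 (R 4.3.3) with its quasi-likelihood test, each pair of groups on its own libraries and the 3 effects over all 14 libraries, with Benjamini-Hochberg adjustment over all genes tested. DESeq2 1.42.0 was an alternative, besides other normalization, filters, covariates and leaving out each library. The scripts were tested on simulated data. Shared sequence was measured by exact matches of at least 50 bases with blastn 2.17.0. Levels per kilobase used the union of exons.

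Values in every library are given for carriers with an adjusted p under 0.05 in any comparison and a group mean of at least 50 normalized counts, and for 9 classical carriers. Slc22a13, Slc22a19, Slc22a26, Slc22a27, Slc22a30 and Slco1a6 were chosen after their values were seen. Another gene of these families and another partner gene are not reported here. The carriers and the gene lists were chosen with earlier results of these data known. Each library is 1 mouse of an outbred stock, and litters are not given, so p-values measure the spread between these mice only.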

Additional observations from a re-analysis of the deposited data

Results flagged for a closer look

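Slc22a4 in T-ND replicate 1 (1375 normalized counts) lay far above the other 3 T-ND libraries, which counted 1080.5, 1071 and 1063. Slco4c1 in T-ND replicate 1 (189 normalized counts) lay far above the other 3, which counted 43.8, 36.7 and 48.4. These 2 were the only values set apart from their group by Dixon's test among 19 carriers in the 2 groups of 4 mice, 38 checks in all, of which chance gives about 1.9. Groups of 3 mice were not checked, so the values of PT-D replicate 1 were not under this test.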

How the results depend on the processing

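The count of carriers called as DEGs was 0 in all 8 comparisons and depended on the tool and filter. DESeq2 gave 2 in PT-D against T-ND, 1 in PT-D against PT-ND, 2 for the STZ average and 1 for the interaction. With no filter on low counts the counts were 5 in PT-D against PT-ND, 1 for the STZ average and 2 for the interaction, with the filterByExpr filter 1 for the interaction, and with the library-name suffix as a covariate 1 in PT-D against PT-ND and 1 for the interaction. Leaving out 1 library gave 0 to 2 in PT-D against T-ND (2 without T-ND replicate 3), 1 to 2 in PT-D against PT-ND, 0 to 1 for the STZ average (1 without T-ND replicate 3), 0 to 2 for the interaction (2 without PT-D replicate 1) and 0 in the other 4 comparisons. Without the fold limit 4 carriers passed in PT-D against PT-ND and 2 for the STZ average.

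At an adjusted p under 0.05 alone, DESeq2 passed 7 carriers in PT-D against T-ND, 2 in PT-D against T-D, 1 in T-D against T-ND, 8 in PT-D against PT-ND, 1 in PT-ND against T-ND, 6 for the STZ average and 5 for the interaction. In PT-D against T-ND, 1 passed with RLE normalization, 1 with the filterByExpr filter, 2 with no filter and 2 with the suffix covariate. In PT-D against T-D, 1 passed with no filter and 1 with all 14 libraries in the fit. With no filter, 13 passed in PT-D against PT-ND, 4 for the STZ average and 2 for the interaction, and the interaction had 2 with filterByExpr and 1 with the suffix covariate. Leaving out 1 library gave 0 to 3 in PT-D against T-ND (3 without T-ND replicate 3), 1 to 6 in PT-D against PT-ND (1 without PT-ND replicate 2), 0 to 4 for the STZ average (4 without T-ND replicate 3, 0 without T-D replicate 2, PT-ND replicate 2 or PT-ND replicate 3) and 0 to 2 for the interaction (2 without PT-D replicate 1). The causes were not tested.

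Replicate numbers did not pair the libraries, since 19 pairs of libraries with the same number in 2 groups had correlations of their deviations between -0.122 and 0.134, and 2 of 14 libraries correlated best with one of their own number. With the replicate number as a block, 4 carriers were DEGs in PT-D against PT-ND and 1 in the interaction, and 11 passed the adjusted p in PT-D against PT-ND, 1 for the STZ average and 1 for the interaction. In the same block fit, Slc22a5 in PT-D against T-ND changed sign from -0.02 to 0.078.

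Partner genes called as DEGs in at least 1 comparison were 3, with 5 under DESeq2, 5 with no filter, 5 without the fold limit and 1 to 7 when 1 library was left out (7 without T-ND replicate 3). All 10 carriers with the highest level were compared under the longest transcript in place of all exons, and all 10 stayed among the 10 highest.

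Fold changes near 0 changed sign when 1 library was left out, with ranges of -0.17 to 0.15 for Slc22a2, -0.12 to 0.086 for Slc22a5 and -0.42 to 1.39 for Slco4c1 in PT-D against T-ND, and of -0.077 to 0.21 for Slc22a6, -0.075 to 0.097 for Slc22a8 and -0.78 to 0.29 for Slco1a6 in PT-D against PT-ND. Slco1a6 turned positive without PT-D replicate 1. For the 553 alternative values of single-gene fold changes, 478 kept the direction and the side of the threshold, 39 gained it, 22 lost it and 14 changed sign. The 6 carriers at 10 counts or less could not be tested at this depth.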

Other observations

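Slco2a1, the prostaglandin carrier of vessels and collecting duct, stayed within 616 to 868 normalized counts over all 14 libraries. Slc22a22, a prostaglandin-specific anion carrier of the rodent proximal tubule, counted 666, 673 and 1432 in PT-D and 1324, 1652 and 1879.5 in PT-ND, overlapping through PT-D replicate 3 (log2 fold change -0.81 ± 0.28, adjusted p = 0.0806 by edgeR). DESeq2 passed it in PT-D against PT-ND (adjusted p = 0.0218), PT-D against T-ND (0.0315) and the STZ average (0.0302), and without PT-D replicate 3 it was a DEG against PT-ND in edgeR (-1.27 ± 0.20, adjusted p = 0.00777).

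Slc47a2, which lies beside Slc47a1 on chromosome 11, was at very low counts, 0 to 7.92 normalized counts in the 7 non-diabetic libraries and 5.15 to 18.1 in the 7 diabetic ones. The STZ average was 1.88 ± 0.61 on the log2 scale (adjusted p = 0.0958 by edgeR, 0.0264 by DESeq2). Slc22a27 counted 38.8 to 76.0 normalized counts in T-ND and 28.2 to 32.2 in T-D without overlap, at -0.92 ± 0.30 (adjusted p = 0.289 by edgeR).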
